A study of Mus musculus with 14 samples.

Results

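Cholesterol synthesis, its sterol-sensing control, and cholesterol export were followed in whole mouse kidneys through 29 genes. The genes were taken by symbol from both deposited tables. They comprised 18 synthesis enzymes and 11 regulators, efflux and transport genes. All 29 were among the 23682 genes listed in both tables, and all 29 passed the low-count filter that left 18810 genes for testing.

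The study compared 3 groups of mice, all given doxycycline in the drinking water. The 4 control mice carried only the actin-rtTA+ transgene, the doxycycline-responsive activator, and were sampled at 30 days. The other 10 mice were i-TERTci animals (actin-rtTA+;TetOp-TERTci+, heterozygous for each transgene), in which doxycycline turns on catalytically inactive telomerase reverse transcriptase in all tissues. From about day 15, when urinary protein exceeded 10 mg/mL, they were injected daily into the peritoneum. DMSO, the vehicle, was given to 5 i-TERTci mice, whose kidneys were taken at 29, 29, 29, 38 and 31 days on doxycycline. GSK2830371, an inhibitor of the phosphatase WIP1, was given to 5 others, sampled at 31, 49, 49, 49 and 28 days. No injection is recorded for the controls, so genotype, disease and injection cannot be told apart in a comparison with them. The labels give neither age nor sex. Each library is labelled as a replicate of its group, and the p-values measure the spread between these samples.

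Cells make cholesterol from acetyl-CoA through mevalonate, isoprenoid diphosphates, squalene and lanosterol. When membranes hold little sterol, SCAP carries the SREBP transcription factors from the endoplasmic reticulum to the Golgi, where they are cut and released to turn on synthesis genes. When sterol is plentiful, INSIG proteins hold the SCAP-SREBP complex back, and oxysterols activate the liver X receptors, whose targets include the exporters ABCA1 and ABCG1 and the ubiquitin ligase MYLIP. In the kidney, podocytes and tubule cells depend on cholesterol export, and disturbed export has been described in glomerular disease.

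SREBPs and liver X receptors act on these genes through their DNA, so promoter sequence is shown for 6 members. Mvk and Mvd were lower in both i-TERTci groups, and Insig1, Insig2 and Abca1 gave the rises among the regulators and exporters. Hmgcs1 held the only exact match to the sterol regulatory element among the members searched. Each stretch has 180 bases, lies upstream of the transcription start site, is written 5′ to 3′ on the gene's strand, and comes from RefSeq on GRCm38.p6. Capitals mark matches to the searched motifs, with ATTGG being a CCAAT box on the opposite strand.
Hmgcs1, chr13:119690171-119690350, plus strand: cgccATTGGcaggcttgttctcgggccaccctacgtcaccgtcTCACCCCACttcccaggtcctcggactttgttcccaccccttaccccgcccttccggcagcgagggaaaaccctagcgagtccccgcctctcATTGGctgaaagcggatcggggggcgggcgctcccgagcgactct
Mvk, chr5:114444089-114444268, plus strand: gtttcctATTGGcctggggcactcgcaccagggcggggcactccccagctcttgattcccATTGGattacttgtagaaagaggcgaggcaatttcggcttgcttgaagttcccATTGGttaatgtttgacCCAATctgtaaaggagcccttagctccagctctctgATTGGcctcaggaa
Mvd, chr8:122443423-122443602, minus strand: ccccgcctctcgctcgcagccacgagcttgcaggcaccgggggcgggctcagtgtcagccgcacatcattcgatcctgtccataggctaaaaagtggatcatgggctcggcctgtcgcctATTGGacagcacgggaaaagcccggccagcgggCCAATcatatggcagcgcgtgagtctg
Insig1, chr5:28071183-28071362, plus strand: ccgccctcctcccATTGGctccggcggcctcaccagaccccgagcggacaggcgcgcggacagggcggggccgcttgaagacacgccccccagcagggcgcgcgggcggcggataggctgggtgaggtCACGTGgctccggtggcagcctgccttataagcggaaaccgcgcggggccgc
Insig2, chr1:121332590-121332769, minus strand: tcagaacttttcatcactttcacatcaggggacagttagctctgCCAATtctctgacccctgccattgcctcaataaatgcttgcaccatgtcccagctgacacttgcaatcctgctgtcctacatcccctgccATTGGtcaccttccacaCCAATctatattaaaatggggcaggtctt
Abca1, chr4:53159896-53160075, minus strand: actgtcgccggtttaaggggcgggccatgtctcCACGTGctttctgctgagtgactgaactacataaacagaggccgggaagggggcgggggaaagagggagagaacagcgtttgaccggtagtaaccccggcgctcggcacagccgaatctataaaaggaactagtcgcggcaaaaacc

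Promoter windows of 300 bases, from 250 before to 50 after each start site, were found for 24 of the 29 members. Fdps, Fdft1, Sqle, Abcg1 and Stard4 had no window and were not searched. The windows were searched on both strands for 4 motifs, and in the members no match to one motif overlapped a match to another. The CCAAT box, the binding site of the NF-Y partner of SREBP, occurred in 19 of 24 members, against 41.1% of the 27025 genes in the table and 37.4% of all windows. Mvk held 5 matches, Hmgcs1 and Nsdhl held 4 each, and Insig2 held 3. Members on both sides carried it, since Mvk, Mvd, Cyp51 and Dhcr7 were lower and Idi1 and Insig2 were higher in the i-TERTci groups. It was not found in the windows of Acat2, Scap, Nr1h2, Nr1h3 and Abca1. The sterol regulatory element, read as TCAC, any 1 base and CCAC, was found in 1 member, Hmgcs1, from -137 to -129 relative to the start site, against 1.44% of genes and 1.24% of windows. CACGTG, an E-box, was found in 6 members, against 8.09% of genes and 7.15% of windows: Abca1, Dhcr7, Hsd17b7, Insig1, Sc5d and Scap. The liver X receptor repeat, read as AGGTCA, any 4 bases and AGGTCA, matched in 0 of 24 members and in 0.0148% of genes and 0.0152% of windows. These are matches of letters within the window, and members can have several start sites. Sites that depart from the searched letters were not counted, so a lack of matches does not show that a promoter lacks such a site.

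Libraries held 48469086 to 64581825 reads in genes in the controls, 47194888 to 48846771 in the DMSO group and 48434771 to 49422279 in the GSK2830371 group. Mitochondrially encoded genes took 14.4 to 24.2% of control reads, against 4.95 to 9.52% with DMSO and 5.07 to 8.35% with GSK2830371. Tert, the induced gene, was read 106 to 197 times in the control libraries, 693 to 2948 times with DMSO and 239 to 2940 times with GSK2830371. Xist RNA was present in 4 of 4 control, 2 of 5 DMSO and 3 of 5 GSK2830371 libraries, so sex and group were unequally mixed. The kidney markers Slc34a1, Umod, Aqp2 and Nphs1 were read in every library.

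In the DMSO-treated i-TERTci kidneys, 11 of the 29 cholesterol genes changed against the controls, 3 higher and 8 lower. Of all genes tested, 48.3% changed in this comparison, 25.2% higher and 23.1% lower, so the share of members called (37.9%) was below that background. In 12 members the DMSO and control libraries did not overlap, beside 38.8% of all genes. The exporter Abca1 rose 6.08-fold and the isomerase Idi1 3.13-fold, and the lanosterol demethylase Cyp51 fell 6.84-fold. Among the 18 synthesis enzymes, 1 rose and 5 fell, with a median log2 change of -0.24. Of the 11 regulators, efflux and transport genes, 2 rose and 3 fell, with a median of -0.30 (-0.17 without control replicate 3), beside a median of 0.03 over all genes tested. A gene was called where limma's adjusted p, by Benjamini-Hochberg over all 18810 genes, was under 0.05.

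With GSK2830371, 15 of the 29 members changed against the same controls, 6 higher and 9 lower. Over all genes, 46.3% changed in this comparison, 24.3% higher and 22.1% lower, and 51.7% of the members did. In 14 members the GSK2830371 and control libraries did not overlap, beside 40.3% of all genes. Of the synthesis enzymes 3 rose and 5 fell, with a median log2 change of -0.25. The regulators, efflux and transport genes gave 3 rises and 4 falls, with a median of 0.05, beside 0.01 over all genes. Both comparisons use the same 4 control libraries, so they are not independent. The split between rises and falls moved with the scaling of the libraries. With DMSO it was 3 and 8 with size factors, 5 and 8 with TMM factors, 8 and 8 with total reads, and 7 and 8 with reads outside the mitochondrially encoded genes. With GSK2830371 it was 6 and 9, 6 and 8, 7 and 6, and 7 and 8 in the same order. Of all genes, 48.3, 48.3, 48.1 and 46.1% were called with DMSO under those scalings, and 46.3, 46.5, 46.8 and 44.5% with GSK2830371. Total reads moved the median of all genes to 0.34 in both comparisons.

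**Figure D1:**
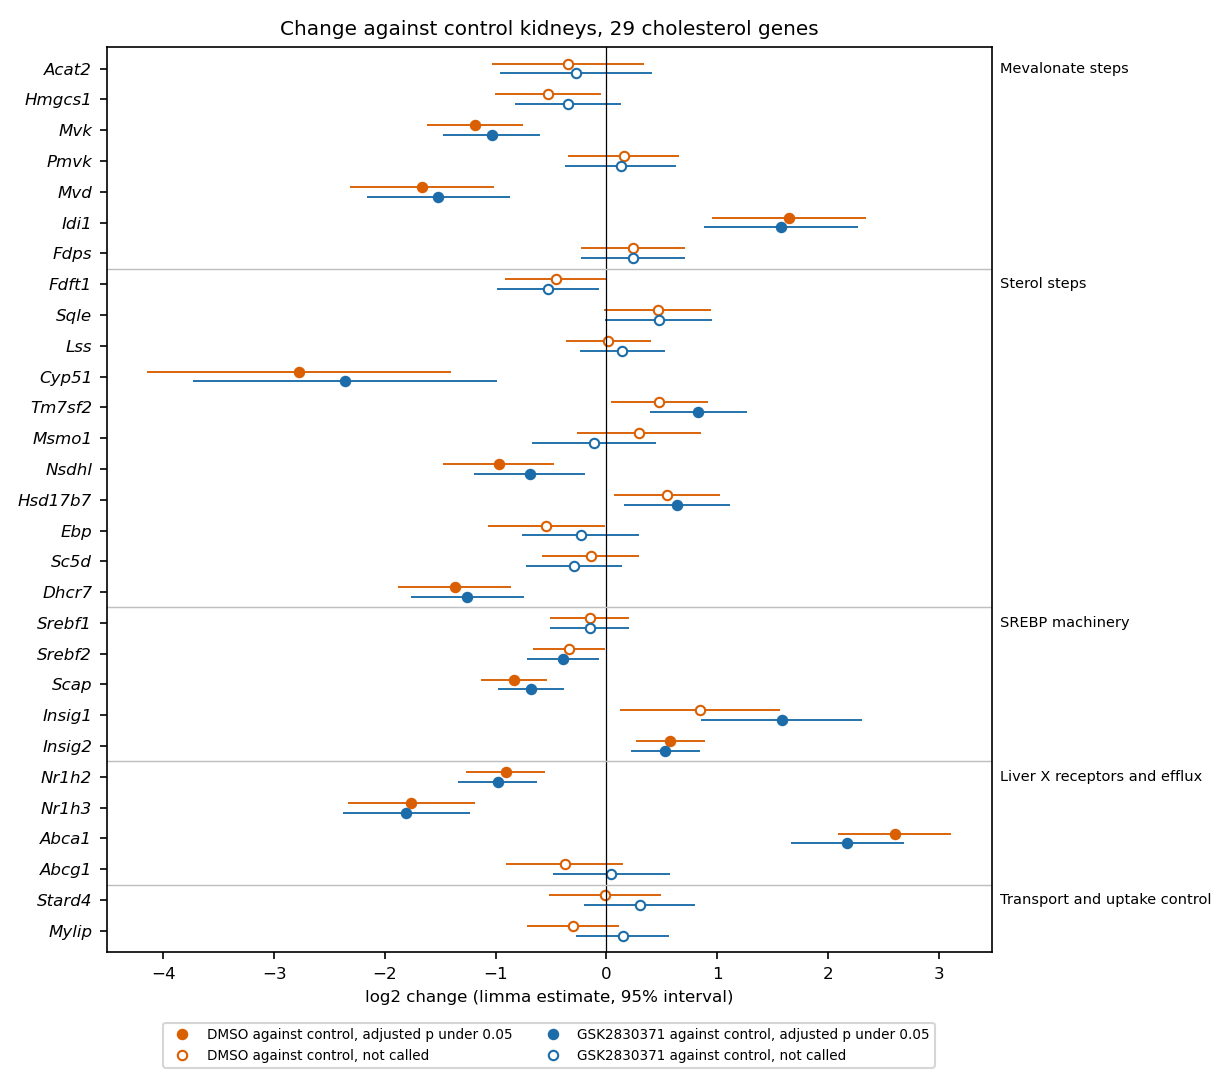
Change of each of the 29 genes in DMSO-treated (orange) and GSK2830371-treated (blue) i-TERTci kidneys against control kidneys, as limma's log2 estimate on the x axis with its 95% interval as a line. Filled points passed the adjusted p threshold. Abca1 stands farthest to the right at 2.60 and 2.18, and Cyp51 farthest to the left at -2.78 and -2.36.

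The mevalonate steps split. Of 7 genes, 1 rose and 2 fell in each comparison with control, and the other 4 did not pass. Mvk, the kinase that phosphorylates mevalonate, held 1072, 931, 704 and 923 normalised reads in the controls, 307, 589, 318, 392 and 420 with DMSO, and 406, 361, 558, 443 and 442 with GSK2830371. Every i-TERTci library was below every control. The log2 change was -1.19 (SE 0.21, adjusted p = 0.000278) with DMSO and -1.04 (adjusted p = 0.000878) with GSK2830371.

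Mvd, the decarboxylase that yields isopentenyl diphosphate, held 3143, 2660, 2143 and 2757 normalised reads in the controls. It held 653, 1125, 504, 1224 and 904 with DMSO and 1108, 509, 1615, 1022 and 731 with GSK2830371. Again no i-TERTci library reached the lowest control. Mvd changed by -1.66 on the log2 scale with DMSO (SE 0.31, adjusted p = 0.000451) and by -1.52 with GSK2830371 (adjusted p = 0.000999).

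Idi1, which acts directly after Mvd and interconverts isopentenyl and dimethylallyl diphosphate, went the other way. It held 89.1, 121, 166 and 258 normalised reads in the controls, 347, 559, 288, 913 and 409 with DMSO, and 405, 362, 529, 462 and 455 with GSK2830371. The lowest i-TERTci library was above the highest control, and the 38-day DMSO library was the highest. Idi1 was higher by 1.65 on the log2 scale (SE 0.33, adjusted p = 0.000811) with DMSO and by 1.58 (adjusted p = 0.00124) with GSK2830371. Mvk, Mvd and Idi1 stayed called under each of the 25 alternative analyses.

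The 4 other mevalonate genes were Acat2, which joins acetyl-CoA units, Hmgcs1, the HMG-CoA synthase, Pmvk, the second kinase, and Fdps, the farnesyl diphosphate synthase. Hmgcs1 ranged from 12005 to 18213 normalised reads in the controls, 7898 to 11760 with DMSO and 7521 to 17679 with GSK2830371. Its DMSO libraries were all below the controls, but the log2 difference of -0.52 (SE 0.23) had an adjusted p of 0.066. That call was made without GSK2830371 replicate 2 (adjusted p = 0.049) or replicate 3 (adjusted p = 0.0373), which enter only through the shared estimate of spread. Hmgcs1 was also called at 31 days or fewer (-0.57, adjusted p = 0.0323), a subset without the 38-day DMSO library. Acat2 gave -0.34 with DMSO (interval -1.03 to 0.34), Pmvk 0.16 (-0.35 to 0.66) and Fdps 0.24 (-0.23 to 0.71).

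The 11 sterol steps, from squalene synthesis to cholesterol, held the lowest log2 change among the members. With DMSO 3 fell and 0 rose, and with GSK2830371 3 fell and 2 rose. Cyp51 (chr5:4081145-4104746, minus strand, GRCm38), the cytochrome that removes a methyl group of lanosterol, held 16911, 15735, 18625 and 17021 normalised reads in the controls. Its DMSO libraries held 1358, 2516, 1143, 4407 and 5550, and its GSK2830371 libraries 4738, 933, 9482, 6386 and 1505. The controls lay close together, whereas the highest i-TERTci value was more than 10 times the lowest, and the groups did not overlap with the controls.

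Cyp51 fell by 2.78 on the log2 scale with DMSO (SE 0.64, adjusted p = 0.00299) and by 2.36 with GSK2830371 (adjusted p = 0.00853). In the Xist-positive libraries alone (4 control, 2 DMSO, 3 GSK2830371), the DMSO change was -2.19 with an adjusted p of 0.0682. Of 8 proximal tubule markers, 6 fell and 0 rose in each comparison with control. Their summed normalised reads were 411626 to 833402 in controls, 99739 to 283277 with DMSO and 86860 to 263305 with GSK2830371. Slc34a1 was the largest single part of that sum in every library. The libraries lowest in Cyp51, GSK2830371 replicate 2 and DMSO replicate 3, were also the lowest in the summed reads of those markers. By the mean log2 deviation of the markers from the controls, DMSO replicate 2 (-2.13) was below DMSO replicate 3 (-1.81), and GSK2830371 replicate 2 (-2.85) was lowest. DMSO replicate 4, at -0.03, was within the control range of -0.33 to 0.16. In that library the marker Slc7a13 held 11502 normalised reads, against 21.2 to 103 in controls. The part of tubule loss in the fall of Cyp51 was not tested, and in bulk tissue fewer cells of a type and less RNA per cell cannot be told apart.

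Dhcr7, the reductase of the last step of one branch, held 2804, 2437, 1174 and 2025 normalised reads in the controls, 526, 1052, 702, 692 and 1050 with DMSO, and 800, 772, 860, 912 and 865 with GSK2830371. All i-TERTci libraries were below control replicate 3, the lowest control. Dhcr7 changed by -1.37 on the log2 scale (SE 0.24, adjusted p = 0.000317) with DMSO and -1.26 (adjusted p = 0.000686) with GSK2830371.

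Nsdhl, an X-linked dehydrogenase that takes part in removing the methyl groups at carbon 4, held 5398, 3183, 2323 and 3980 normalised reads in controls. It held 1838, 2585, 1429, 1508 and 1897 with DMSO and 2722, 2023, 2816, 1829 and 1803 with GSK2830371. The groups overlapped, because control replicate 3 was below DMSO replicate 2 and 2 of the GSK2830371 libraries. Nsdhl changed by -0.97 on the log2 scale with DMSO (SE 0.24, adjusted p = 0.00339) and with GSK2830371 by -0.69 (adjusted p = 0.0252). In Xist-positive libraries alone, the DMSO change was -0.68 (adjusted p = 0.109). The GSK2830371 call was lost in 9 of the 25 alternatives. Leaving out control replicate 1 ended the GSK2830371 call (adjusted p = 0.106), as did leaving out control replicate 4 (0.0685) or GSK2830371 replicate 2 (0.0505), 4 (0.0532) or 5 (0.0594). It was also lost in Xist-positive libraries alone (adjusted p = 0.0578), with the Xist class as a covariate (0.0681), under total reads scaling (0.183) and at 31 days or fewer (0.114).

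Tm7sf2, a sterol reductase acting after Cyp51, held 602, 600, 513 and 493 normalised reads in controls, 566, 1062, 887, 612 and 811 with DMSO, and 1116, 991, 1312, 854 and 725 with GSK2830371. Every GSK2830371 library was above the controls, while DMSO replicate 1 was within their range. The log2 change was 0.83 (SE 0.21, adjusted p = 0.00412) with GSK2830371 and 0.48 (adjusted p = 0.0663) with DMSO. The direct difference between the inhibitor and the vehicle was 0.35 (95% interval -0.06 to 0.77), so the pair was not shown to differ. The DMSO change was called in 9 of the 25 alternatives, with an adjusted p of 0.0135 to 0.0498, among them the fits without DMSO replicate 1 (0.0278) or 4 (0.0421) and in Xist-positive libraries alone (0.021). At 31 days or fewer the GSK2830371 change was 0.71 with an adjusted p of 0.0502.

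Hsd17b7, the ketoreductase that works with Nsdhl, held 990, 873, 1456 and 1244 normalised reads in the controls. The DMSO libraries held 1510, 1709, 1604, 2246 and 1262, and those with GSK2830371 2477, 1808, 1787, 1076 and 1853. GSK2830371 replicate 4 lay within the control range and the other 4 libraries of that group above it. Hsd17b7 was called higher with GSK2830371 at 0.64 (SE 0.23, adjusted p = 0.0299), and with DMSO its 0.55 had an adjusted p of 0.0552. Each call changed in 7 of the 25 alternatives. The GSK2830371 one ended when control replicate 1 (adjusted p = 0.0814) or 2 (0.105) was left out, or GSK2830371 replicate 1 (0.0782), 2 (0.0542) or 5 (0.0565). It also ended in Xist-positive libraries alone (0.159) and with the Xist class as a covariate (0.0939). The DMSO call was gained without control replicate 3 (0.033), DMSO replicate 5 (0.0328), or GSK2830371 replicate 1 (0.0429) or 4 (0.0271), and under TMM (0.0488), total reads (0.00614) and non-mitochondrial reads (0.0212) scaling.

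Of the remaining sterol enzymes none passed in either comparison. Sqle, the squalene epoxidase, ranged from 2269 to 3143 normalised reads in controls, 2887 to 5950 with DMSO and 2733 to 4798 with GSK2830371, with log2 differences of 0.46 (interval -0.02 to 0.94) and 0.47 (-0.01 to 0.96). Fdft1, the squalene synthase, gave -0.46 (-0.92 to 0.00) and -0.53 (-0.99 to -0.07), the latter with an adjusted p of 0.0564. Without DMSO replicate 1 both Fdft1 differences were called (adjusted p = 0.0311 and 0.0378), and the GSK2830371 one also without DMSO replicate 5 (0.0281). Both were also called with the Xist class as a covariate, at -0.65 (adjusted p = 0.0439) and -0.66 (0.0272). In Xist-positive libraries alone the GSK2830371 one was called at -0.64 (0.0339). Ebp, the X-linked sterol isomerase, had all 5 DMSO libraries (1940 to 2925) below the controls (3286 to 3725). Its log2 difference of -0.54 (adjusted p = 0.0836) was called without GSK2830371 replicate 3 (0.0284) and at 31 days or fewer (0.0456). Lss, the lanosterol synthase, gave 0.02 (interval -0.36 to 0.40) and 0.15 (-0.24 to 0.53). Msmo1, the methylsterol oxidase, gave 0.29 and -0.12, and Sc5d, the sterol desaturase, -0.14 and -0.29.

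**Figure D2:**
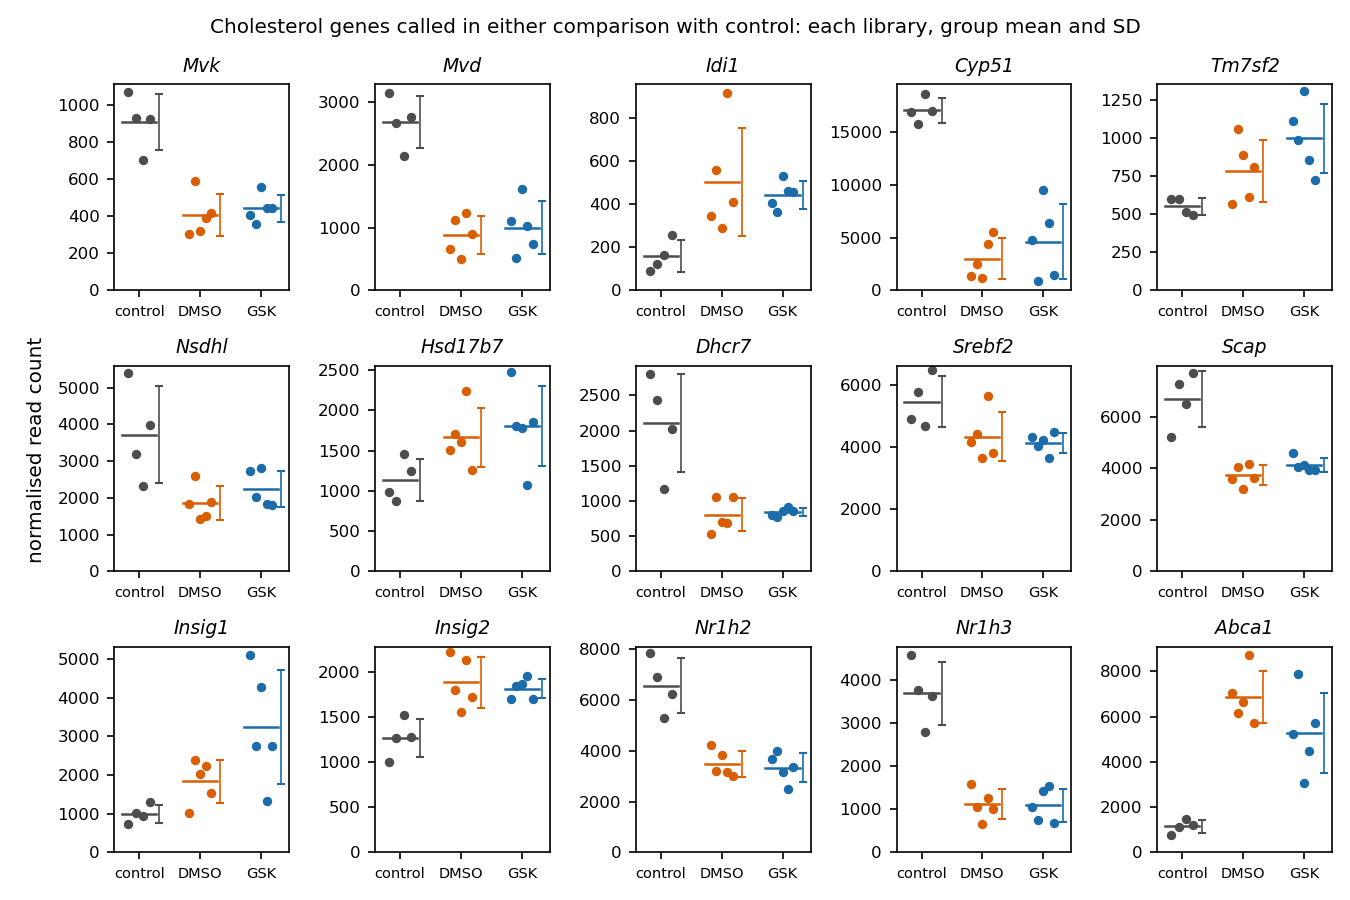
Normalised read counts of the 15 genes called in either comparison with control, 1 panel per gene with its own axis from 0; GSK stands for GSK2830371. Points are libraries, horizontal bars group means and error bars the SD (n = 4, 5 and 5). For Cyp51 and Abca1 the controls, at 15735 to 18625 and 762 to 1492, are clear of all i-TERTci libraries, while for Nsdhl and Hsd17b7 the groups overlap.

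Within the SREBP machinery, Insig2 was higher and Scap lower in both comparisons, and Insig1 was called higher with GSK2830371. Scap, the escort that carries SREBP to the Golgi, held 5233, 7260, 6501 and 7719 normalised reads in controls, 3594, 4036, 3193, 4186 and 3640 with DMSO, and 4597, 4041, 4149, 3931 and 3920 with GSK2830371. No i-TERTci library reached the lowest control. The log2 change was -0.83 (SE 0.14, adjusted p = 0.000228) with DMSO and -0.68 (adjusted p = 0.00116) with GSK2830371. Scaled by total reads, the GSK2830371 change was -0.35 with an adjusted p of 0.0952.

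Insig2, a retention factor, held 1002, 1264, 1529 and 1276 normalised reads in controls, 2222, 1797, 1558, 2132 and 1718 with DMSO, and 1705, 1850, 1867, 1952 and 1705 with GSK2830371. All i-TERTci libraries lay above the controls, DMSO replicate 3 by a small margin. It was higher by 0.58 on the log2 scale (SE 0.15, adjusted p = 0.00465) with DMSO and by 0.53 (adjusted p = 0.00802) with GSK2830371. The DMSO change was 0.49 (adjusted p = 0.0618) in Xist-positive libraries alone, and the GSK2830371 change 0.44 (adjusted p = 0.108) at 31 days or fewer.

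Insig1 (chr5:28071363-28078662, plus strand, GRCm38), the retention factor that is itself an SREBP target, held 736, 1016, 941 and 1304 normalised reads in controls. The DMSO libraries held 1021, 2380, 2037, 2233 and 1526, and the GSK2830371 libraries 5103, 2741, 4266, 1319 and 2747. With GSK2830371 all 5 libraries were above the controls, replicate 4 just so, while DMSO replicate 1 was among the controls. The log2 change was 1.58 (SE 0.34, adjusted p = 0.00167) with GSK2830371, a 2.99-fold rise, and 0.85 with an adjusted p of 0.0512 with DMSO.

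The DMSO difference in Insig1 was close to the threshold, and 11 of the 25 alternatives called it. Among them were edgeR's quasi-likelihood test (0.88, adjusted p = 0.0392) and DESeq2 (0.88, adjusted p = 0.0231). It was also called without DMSO replicate 1 (1.04, adjusted p = 0.0191), without control replicate 4 (0.98, adjusted p = 0.0468), and without GSK2830371 replicate 1 (adjusted p = 0.0372), 3 (0.0492) or 4 (0.0162).

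The SREBP genes themselves differed little. Srebf2, which encodes the main activator of cholesterol synthesis, held 4909, 5768, 4691 and 6476 normalised reads in controls, 4165, 4405, 3650, 5653 and 3810 with DMSO, and 4309, 4024, 4213, 3633 and 4476 with GSK2830371. The GSK2830371 libraries were all below the controls, and the log2 change of -0.39 (SE 0.15) had an adjusted p of 0.0445. It was lost in 14 of the 25 alternatives, with an adjusted p of 0.777 under total reads scaling and 0.0505 to 0.142 when single libraries were left out: control replicate 2 or 4, DMSO replicate 2, or any of the 5 GSK2830371 replicates. With DMSO the difference was -0.34 (adjusted p = 0.078), called without DMSO replicate 4, the highest (-0.44, adjusted p = 0.0207). Srebf1, which encodes the activator of fatty acid synthesis, gave -0.15 in both comparisons (intervals -0.51 to 0.20).

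Among the liver X receptors and exporters, the receptors were lower and Abca1 was higher. Nr1h3, which encodes LXR-alpha, held 4590, 3766, 2796 and 3636 normalised reads in controls, 1601, 1055, 660, 1273 and 1005 with DMSO, and 1052, 755, 1427, 1549 and 694 with GSK2830371. Every i-TERTci library was below every control. Nr1h3 changed by -1.76 on the log2 scale (SE 0.27, adjusted p = 0.000112) with DMSO and -1.81 (adjusted p = 0.000103) with GSK2830371.

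Nr1h2, which encodes LXR-beta, held 7847, 6921, 5309 and 6232 normalised reads in controls, 4230, 3227, 3833, 3186 and 2996 with DMSO, and 3662, 4016, 3181, 2484 and 3354 with GSK2830371. These groups also stood apart from the controls. Nr1h2 changed by -0.91 on the log2 scale with DMSO (SE 0.17, adjusted p = 0.000445) and with GSK2830371 by -0.98 (adjusted p = 0.000277). Nr1h2 and Nr1h3 kept both calls under all 25 alternatives.

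Abca1 (chr4:53030787-53159895, minus strand, GRCm38), which exports cholesterol and phospholipid to lipid-poor apolipoproteins, had the smallest p of the members. It held 762, 1126, 1492 and 1205 normalised reads in controls, 7031, 6180, 6647, 8707 and 5700 with DMSO, and 5227, 7878, 3072, 4487 and 5708 with GSK2830371. The lowest i-TERTci library, GSK2830371 replicate 3, was above the highest control. Abca1 was higher by 2.60 on the log2 scale (SE 0.24, adjusted p = 1.34e-06) with DMSO and by 2.18 (adjusted p = 7.17e-06) with GSK2830371, and both changes stayed called in all 25 alternatives, between 1.99 and 2.92.

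Macrophages also express Abca1. Of 8 macrophage markers, 3 rose with DMSO (C1qa, Lyz2 and Mrc1), 1 fell (Csf1r) and 4 did not pass, and with GSK2830371 the same 3 rose. Their summed normalised reads were 7734 to 11551 in controls, 7535 to 37805 with DMSO and 11968 to 35568 with GSK2830371. DMSO replicate 4 had the highest Abca1 (8707) and the lowest macrophage sum of all libraries (7535). In the GSK2830371 group, both rose in the same order, through replicates 3, 4, 1, 5 and 2, whereas in the DMSO group the orders differed. The part of macrophages in the level of Abca1 was not tested.

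**Figure D3:**
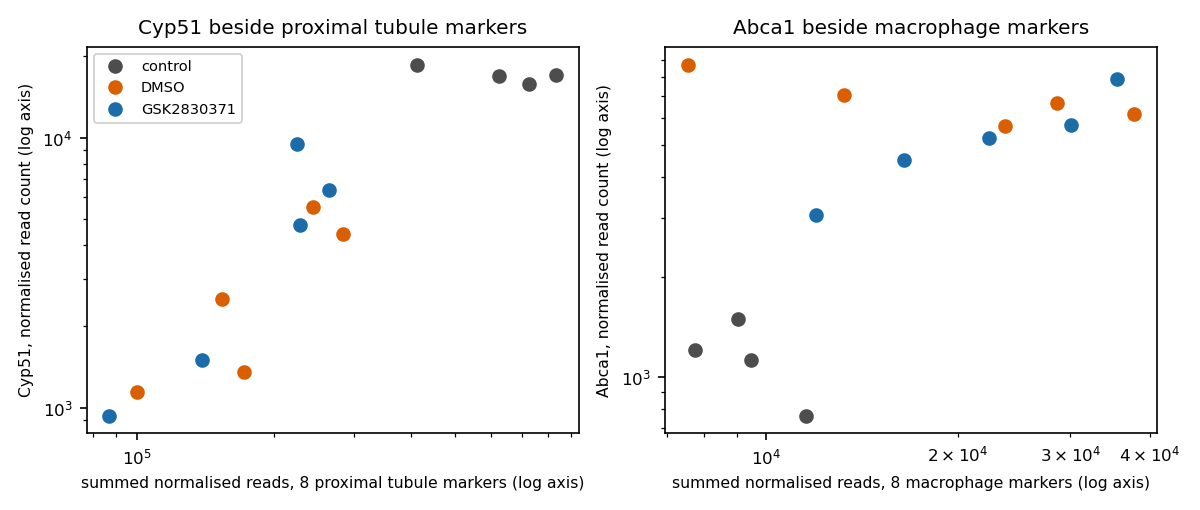
Each point is a library (grey control, orange DMSO, blue GSK2830371), with normalised reads of Cyp51 against the summed reads of 8 proximal tubule markers on the left and of Abca1 against 8 macrophage markers on the right, all on log axes. The library with the highest Abca1 (8707) has the lowest macrophage sum (7535), while the GSK2830371 libraries have the same order in Abca1 and in the macrophage sum. The libraries with the lowest Cyp51 (933 and 1143) have the lowest proximal tubule sums (86860 and 99739).

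Abcg1, the exporter to high-density lipoprotein, did not follow Abca1. It ranged from 572 to 771 normalised reads in controls, 272 to 736 with DMSO and 581 to 942 with GSK2830371. The log2 differences were -0.38 (95% interval -0.90 to 0.15) and 0.05 (-0.48 to 0.57). Neither passed, under the main analysis or any alternative.

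Neither of the 2 transport and uptake genes passed the threshold in the main analysis. Stard4, a carrier of sterol between membranes, held 1640, 1562, 2305 and 2431 normalised reads in controls, 1596, 2343, 1198, 2036 and 2936 with DMSO, and 2261, 1819, 3083, 2374 and 2629 with GSK2830371. Mylip, the ubiquitin ligase that sends lipoprotein receptors for degradation, held 2555, 3508, 4337 and 3016, then 3335, 2313, 3192, 2389 and 2326, and 5044, 2891, 3493, 3105 and 4053 in the same order. The groups overlapped for both genes. Stard4 gave log2 differences of -0.01 (interval -0.51 to 0.49) and 0.30 (-0.20 to 0.80), and Mylip -0.30 (-0.72 to 0.12) and 0.15 (-0.27 to 0.56).

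The changes altered which genes stood highest. Levels were set side by side as normalised reads per kilobase of the longest protein-coding GENCODE M21 transcript. Cyp51 was first in the controls at 4343 ± 302 (SD, n = 4), followed by Hmgcs1 at 4120 ± 819 and Nr1h2 at 3290 ± 537, and the first pair did not differ beyond their spread. With DMSO, Hmgcs1 was first at 2856 ± 464 (SD, n = 5) and Cyp51 was at rank 10 with 762 ± 490. With GSK2830371, Hmgcs1 was first at 3335 ± 1140 (SD, n = 5) and Cyp51 was at rank 8 with 1172 ± 900. Idi1 was the lowest in the controls at 52.4 ± 24.3 and stayed next to lowest at 166 ± 82.7 and 146 ± 20.9. Abca1 went from 112 ± 29.3 in controls to 668 ± 112 and 514 ± 172, and Insig1 from 370 ± 87.3 to 682 ± 208 and 1200 ± 547.

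Within the i-TERTci kidneys, GSK2830371 against DMSO gave 0 called members. No gene of the 18810 passed in this comparison (0%), by limma or edgeR, and 1 passed by DESeq2. At an unadjusted p under 0.05 limma counted 800 genes (4.25%), among them 2 of the 29 members (6.9%). These were Insig1, at a log2 difference of 0.74 (95% interval 0.05 to 1.42, adjusted p = 0.994), and Mylip, at 0.45 (0.05 to 0.84, adjusted p = 0.994). In Insig1, 4 of the 5 GSK2830371 libraries were above every DMSO library and replicate 4 was below 4 of the 5. In Mylip the ranges were 2891 to 5044 with GSK2830371 and 2313 to 3335 with DMSO.

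Abca1 gave a difference of -0.43 (95% interval -0.91 to 0.05), Tm7sf2 0.35 (-0.06 to 0.77) and Abcg1 0.42 (-0.07 to 0.92). Cyp51 gave 0.42 with an interval from -0.88 to 1.71, the widest of the members. Idi1 gave -0.07 (-0.73 to 0.59), Mvd 0.15 (-0.47 to 0.76) and Insig2 -0.04 (-0.34 to 0.25). The median over the 18 synthesis enzymes was 0.10, with 12 positive and 6 negative, and that over the 11 other members was 0.00, beside -0.01 over all genes. In 0 of the 29 members did the groups stand apart, against 0.484% of all genes. Doxycycline was given for 49 days in 3 of the 5 inhibitor libraries and for 31 and 28 days in the others. In the 31-day subset (4 DMSO, 2 GSK2830371 libraries) 0 members passed as well.

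**Figure D4:**
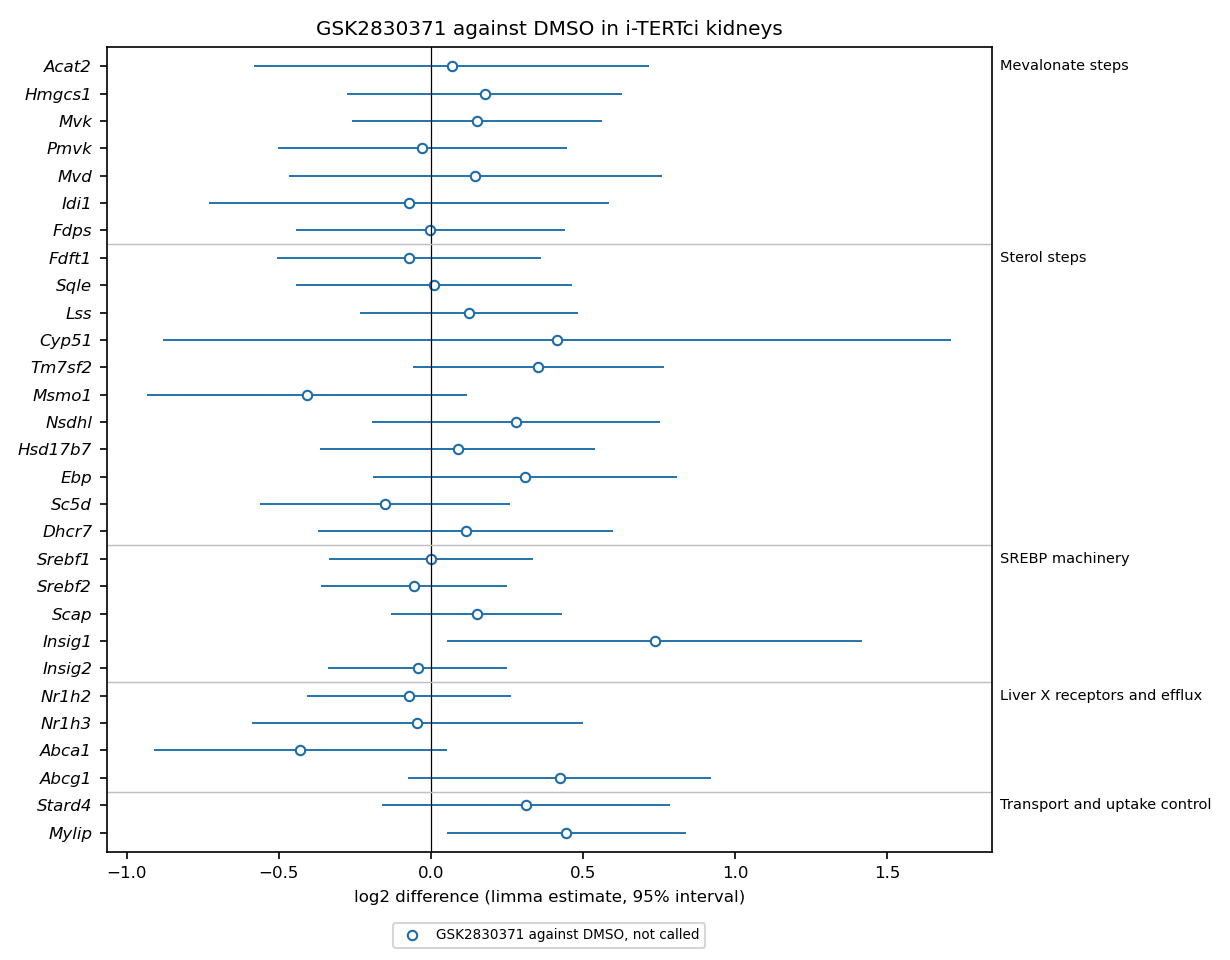
Difference of each of the 29 genes between GSK2830371-treated and DMSO-treated i-TERTci kidneys, as limma's log2 estimate on the x axis with its 95% interval as a line. All points are open, as none passed the adjusted p threshold. The intervals of Insig1 and Mylip begin at 0.05, and that of Cyp51 runs from -0.88 to 1.71.

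Libraries of the same group differed in the level of the whole synthesis series. The mean log2 deviation of the 7 mevalonate genes from the control mean was -0.14 to 0.12 in controls, -0.55 to 0.07 with DMSO and -0.54 to 0.32 with GSK2830371. For the 11 sterol steps it was -0.08 to 0.12, -0.72 to -0.08 and -0.61 to 0.09. GSK2830371 replicate 3, at 49 days, was highest of the 10 i-TERTci libraries in 7 of the 18 enzymes, and DMSO replicate 4, at 38 days, in 5. DMSO replicate 3 was lowest in 6, and DMSO replicate 5 and GSK2830371 replicate 2 in 4 each. GSK2830371 replicate 2 was also at 49 days, a time found only in the inhibitor group. The part of time on doxycycline in this spread was not tested. The mean of the SREBP machinery had no such spread below the controls. It was -0.25 to 0.23 in controls, -0.11 to 0.23 with DMSO and -0.19 to 0.42 with GSK2830371. That mean joins genes that moved apart, with Scap lower and Insig2 higher in both comparisons with control, so it does not show that the single genes were steady.

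**Figure D5:**
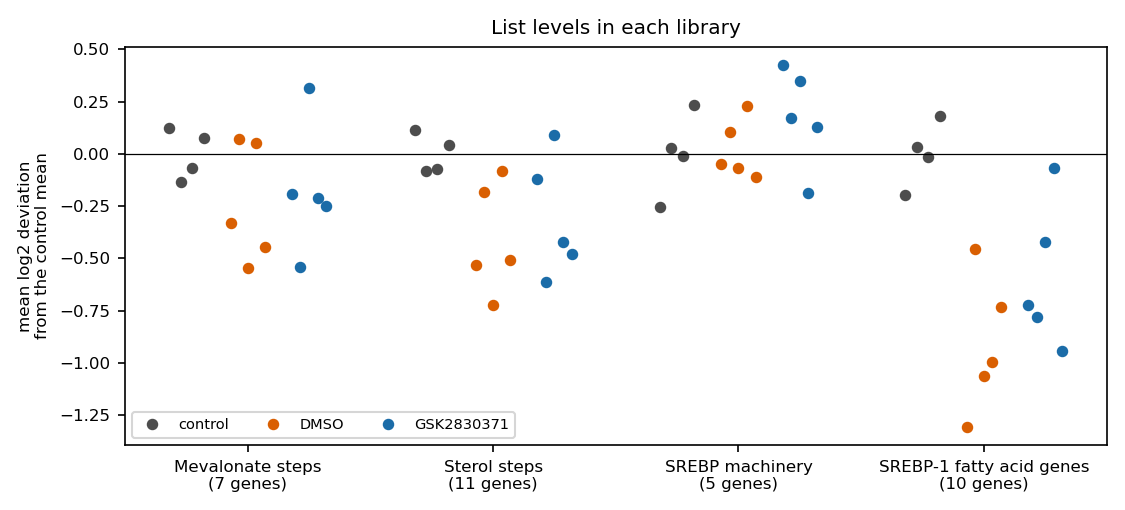
Mean log2 deviation from the control mean (y axis) of 4 gene lists, 1 point per library (grey control, orange DMSO, blue GSK2830371). The SREBP-1 fatty acid genes lie between -1.31 and -0.07 in all i-TERTci libraries, with GSK2830371 replicate 4 at -0.07 and the other 4 of its group between -0.94 and -0.42, whereas the mevalonate and sterol steps reach from -0.72 to 0.32.

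Around the members, 67 further genes of the pathway in 6 lists were counted, of which 66 were tested. With DMSO 19 rose and 19 fell (57.6%), and with GSK2830371 14 rose and 16 fell (45.5%), beside backgrounds of 48.3% and 46.3%. The 10 fatty acid genes driven by SREBP-1 gave 0 rises and 6 falls with DMSO, with a median log2 change of -1.08. With GSK2830371 1 rose and 4 fell, with a median of -0.60. Acss2, the acetyl-CoA synthetase, fell by 1.78 and 1.59 on the log2 scale (adjusted p = 8.1e-05 and 0.000226). Fads2, a fatty acid desaturase, fell 2.83-fold and 2.42-fold (adjusted p = 0.00017 and 0.000669), and Fads1, its partner, fell by 0.71 and 0.46 on the log2 scale (adjusted p = 0.00149 and 0.0225). With DMSO only 3 genes of the list fell under total reads scaling and 3 in Xist-positive libraries alone, and with GSK2830371 total reads scaling gave 3 rises and 2 falls. GSK2830371 replicate 4 stood apart, with the highest Fasn (12127 normalised reads, against 1537 to 8618 elsewhere) and Acaca (2565, against 896 to 1460). Without it, 1 gene rose and 5 fell with GSK2830371, Fasn among them, with a median of -0.80. That library was also the highest in adipocyte markers, with a mean log2 deviation of 4 adipocyte markers of 4.24 from the controls, while the DMSO libraries lay at -4.01 to -3.30. The proximal tubule markers given beside Cyp51 were lower in most i-TERTci libraries as well. The part of either cell type in these values was not tested.

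The 21 genes of uptake, lysosomal release, esterification and transfer gave 7 rises and 5 falls with DMSO and 5 rises and 4 falls with GSK2830371. Npc2, which carries cholesterol out of the lysosome, rose by 1.38 and 1.60 on the log2 scale (adjusted p = 2.47e-05 and 7.62e-06). Tspo, an outer mitochondrial membrane protein that binds cholesterol, rose by 1.71 and 1.60 (adjusted p = 0.000155 and 0.000296). Nceh1, a cholesterol ester hydrolase, fell by 1.62 and 1.46 (adjusted p = 0.000239 and 0.000593).

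Other efflux and liver X receptor target genes gave 4 rises and 3 falls in each comparison, over 11 tested of 12. Abca5, a transporter of the Abca1 family, rose by 1.90 and 1.88 (adjusted p = 4.61e-06 and 5.3e-06). Cav1, the caveolin of membrane rafts, fell by 0.83 and 0.43 (adjusted p = 0.000452 and 0.0324). Abcg8, a subunit of the sterol transporter of bile canaliculi, was near the limit of detection, at 14 to 37.1 normalised reads in controls, 0 to 3.31 with DMSO and 0 to 1.13 with GSK2830371.

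The 10 other sterol enzymes and partners of the regulators gave 5 rises with DMSO and 4 with GSK2830371. Mbtps2, the protease that makes the final cut in SREBP, rose by 0.79 and 0.76 (adjusted p = 0.00183 and 0.00261). Lbr, which shares its reductase step with Tm7sf2, rose by 0.73 with DMSO (adjusted p = 0.00908) and gave 0.51 (adjusted p = 0.0545) with GSK2830371.

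The 7 isoprenoid branch genes gave 1 rise and 3 falls with DMSO, and 0 rises and 3 falls with GSK2830371. Dhdds, which makes dolichol chains, fell by 0.92 and 0.94 (adjusted p = 0.00102 and 0.000925), and Fntb, a subunit of farnesyltransferase, fell by 0.68 and 0.61 (adjusted p = 0.00531 and 0.0112). Coq2, of ubiquinone synthesis, rose by 0.69 with DMSO (adjusted p = 0.00849) and gave 0.48 (adjusted p = 0.0539) with GSK2830371. The 7 oxysterol and bile acid enzymes gave 2 rises and 1 fall, then 0 rises and 1 fall. Cyp46a1, the cholesterol 24-hydroxylase, fell by 2.29 and 2.13 (adjusted p = 0.00041 and 0.000788). Ch25h, the 25-hydroxylase, was at 59.4 to 66 normalised reads in controls and 69.6 to 772 with DMSO, where replicates 1 and 4 stood above the rest. It rose by 1.57 on the log2 scale (adjusted p = 0.0399), and with GSK2830371, at 99.7 to 138, gave 0.84 (adjusted p = 0.259).

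Adrenal cortex, a sterol-handling tissue that borders the kidney, was checked through 7 markers. Cyp11b1 and Cyp11b2 were not in both tables, and Cyp11a1 and Cyp21a1 did not exceed 5.84 normalised reads in any library. The 3 tested markers, Star, Hsd3b1 and Mc2r, summed to 54 to 91 normalised reads in controls, 98 to 144 with DMSO and 89 to 214 with GSK2830371. Of these 3, 1 was called higher with DMSO and 2 with GSK2830371, with median log2 changes of 0.46 and 1.37. Of 5 neutrophil markers 4 rose in each comparison, and their sums were 131 to 222, 665 to 24221 and 434 to 14785. Of 5 adipocyte markers 4 were found, with sums of 1398 to 2784, 850 to 4436 and 1268 to 14090, most of it Fabp4 except in GSK2830371 replicate 4. Cfd, the defining adipocyte protease adipsin, held 22.3 to 619 normalised reads in controls and 0 to 9.11 with DMSO (adjusted p = 0.0172), and Adipoq, the adipocyte hormone adiponectin, held 0 to 66 and 0 to 1.85. In GSK2830371 replicate 4 they held 6578 and 1313, against at most 195 and 28.4 in the other 4 libraries of that group. None of the 4 markers was called with GSK2830371. The part of these cells in the cholesterol genes was not tested.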

How the data were processed

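RNA from whole kidney was sequenced in 14 libraries of 3 groups. The deposited tables hold signal per gene, which the authors made as whole reads divided by 1 size factor per library. The 2 tables, of 24221 and 24164 genes, share the control libraries. Divided by the smallest step of its column, each of 435465 values gave a whole number of reads within 0.001 (100%), and the recovered control reads had 0 mismatches between the tables. Per the submitters' processing notes, FastQC, Trimmomatic, STAR and DESeq2 were used with mm10. No label gives their versions, the read counter, the annotation or the use of strand, so reads of overlapping antisense genes cannot be told apart.

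Recovered reads of the 23682 shared genes were scaled with median-of-ratios factors over all 14 libraries, giving the normalised reads of the text. Genes passing filterByExpr (18810) entered 1 limma 3.58.1 fit (R 4.3.3) of log2(normalised reads + 1) by group, with trend and robust moderation. Two-sided p-values were adjusted by Benjamini-Hochberg and called under 0.05, and fold changes are on the log2(normalised reads + 1) scale. The scripts were tested on simulated data. Alternatives used edgeR 4.0.16 and DESeq2 1.42.0 on the recovered reads, other scalings, a pseudocount of 10, no filter, a replicate block, sex and time subsets, and the omission of each library. No pair of libraries within a group was alike within sampling noise. Loci and lengths came from GENCODE M21 (GRCm38), promoters from RefSeq (GRCm38.p6), and plots from matplotlib 3.10.9 in Python 3.11.15.

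The members and lists were chosen with earlier results of these data known. All 29 members were named, with every library's value for those called in any comparison or, in a role with none, for the pair with the smallest p. Of each further list, the 3 genes with the smallest p in DMSO against control could be named. Genes in only 1 table were not analysed here. One gene of the further lists is not reported here.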

Additional observations from a re-analysis of the deposited data

Results flagged for a closer look

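Gaps between 1 library and the rest of its group were sought in 87 groups (29 genes in 3 groups), where chance flags about 5%, and 2 were found, both in Fdft1, the squalene synthase. In control replicate 3 Fdft1 held 1624 normalised reads, and the nearest of the other controls held 1805, a gap of 0.97 of the group's range. In GSK2830371 replicate 4 it held 894, and the nearest of the others held 1255, a gap of 0.76 of the range.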

How the results depend on the processing

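The results were recomputed under 25 alternatives, of which 14 left out 1 library each and 1, the scaling by reads outside mitochondrially encoded genes, was chosen after seeing the data. Over 29 genes and 3 comparisons, 26 gene changes were called, of which 17 stayed called in all alternatives and 9 were lost in some. Of 61 not called, 49 stayed so and 12 were called in some. In 0 cases did a called change reverse. Beside the genes already given, total reads scaling called Sqle with DMSO (0.78, adjusted p = 0.0117) and with GSK2830371 (0.81, adjusted p = 0.0101) and Msmo1 with DMSO (0.61, adjusted p = 0.0367). The Xist class as a covariate called Mylip with DMSO (-0.56, adjusted p = 0.0341). The cause was not tested.

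The median log2 change of the synthesis enzymes moved under total reads scaling, from -0.24 to 0.077 with DMSO and from -0.25 to 0.08 with GSK2830371, each against control. The median of all genes moved there to 0.34 in both, so the enzymes stayed below it. The median of the 11 other members moved there to 0.02 and 0.38, and without control replicate 3 to -0.17 with DMSO. Under the other alternatives with all 14 libraries, the enzyme median was -0.31 to -0.12 with DMSO and -0.25 to -0.14 with GSK2830371. In Xist-positive libraries alone it was -0.37 and -0.20, and at 31 days or fewer -0.34 and -0.30. Leaving out 1 library gave -0.34 to -0.15 and -0.41 to -0.13, and -0.01 to 0.18 between inhibitor and vehicle.

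Cholesterol genes changed with DMSO numbered 11, with 11 to 14 when 1 library was left out, 9 in Xist-positive libraries alone, and 16 with total reads or at 31 days or fewer. Of all genes, 48.3% were called with DMSO, 40.2 to 48.6% when 1 library was left out and 32.2% in Xist-positive libraries alone. That share was 48.1% with total reads and 45% at 31 days or fewer. With GSK2830371 the changed members numbered 15, with 12 to 16 when 1 library was left out and 11 at 31 days or fewer. The shares of all genes called were 46.3%, 38.1 to 48.4% and 37.6% in the same order. Between inhibitor and vehicle the count was 0 throughout.

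Deviations from the group means correlated at -0.06 to 0.34 (median 0.06) in the 13 same-numbered pairs of libraries. In the 52 pairs of unlike number they correlated at -0.465 to 0.383 (median -0.014). Of 14 libraries, 6 correlated best with their own number, which does not settle whether replicate numbers pair the samples. With the replicate number as a block, 12, 14 and 0 members were called in the 3 comparisons, beside 51, 49.2 and 0% of all genes. The enzyme medians were then -0.17, -0.15 and 0.10.

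Sex, time on doxycycline, tissue composition and group are unequally mixed. The 29 members held at least 89.1 normalised reads in every library.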
